A study of Arabidopsis thaliana with 21 samples.

Results

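Plants take the auxin indole-3-acetic acid (IAA) out of action by conjugating or oxidising it, and transcripts of 8 Arabidopsis thaliana genes for this step were followed in roots given the peptide AtCEP5. The genes were GH3.1, GH3.2, GH3.3, GH3.5, GH3.6 and GH3.17, DAO1 and UGT84B1, taken by gene identifier from the 32833 genes of the count table. Their identifiers are AT2G14960 (GH3.1), AT4G37390 (GH3.2), AT2G23170 (GH3.3), AT4G27260 (GH3.5), AT5G54510 (GH3.6), AT1G28130 (GH3.17), AT1G14130 (DAO1) and AT2G23260 (UGT84B1). Of the 8, 7 passed the filter on low counts, and UGT84B1 did not.

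The GH3 proteins in this set are amido synthetases that join IAA to amino acids, which stores the hormone or commits it to breakdown. DAO1 is a dioxygenase of the route to oxidised IAA, and UGT84B1 is a glucosyltransferase that makes the glucose ester of IAA. Several GH3 genes are themselves switched on by auxin through AUXIN RESPONSE FACTOR proteins, so that they act as a brake on the hormone and are widely read as auxin response genes. GH3.17 prefers glutamate as its amino acid, and cytokinin is known to act on it in the root tip.

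The data were RNA-seq libraries of root RNA in 7 groups of 3 libraries, 21 in all. AtCEP5, a small secreted peptide of the C-TERMINALLY ENCODED PEPTIDE family, was applied and roots were taken 6, 12 and 24 h later. Mock treatment had the same 3 times, and 1 further group was taken before treatment, at 0 h. By the labels the samples are roots, with root meristem cell named as cell type. Genotype, plant age and peptide dose were not given in the sources used here, and no allele or agent other than AtCEP5 and mock is named. By its title, the study asks how CEP peptides bear on auxin and cytokinin signalling in root growth.

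Total counts per library ranged from 10334319 to 14345476. The share of ribosomal RNA genes was 1.96% in the third AtCEP5 library at 12 h, 2.2% in the second mock library at 6 h and 0.27 to 0.601% in the other 19. All 6 root meristem markers were detected, with a summed level of 85.6 to 128 CPM (counts relative to the library total, after TMM scaling). RNA of other cells was present too. The 7 green shoot markers together had 130 to 414 CPM in the libraries taken after treatment, and 342, 400 and 2000 CPM in the 3 taken before it, so that replicate 3 before treatment stood apart. No marker of any list was at 0 in all libraries of a group. Nothing in the labels says that replicates came from separate plantings, so a p-value here measures the spread among these samples alone, and that spread may be technical.

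The 300 bases upstream of the annotated starts of 4 members are printed here because 3 of them hold the letters TGTCTC, the classical auxin response element, and because these 4 include each member called for AtCEP5 against mock. The sequences are read 5′ to 3′ on the gene's strand from the TAIR10.1 genome, with TGTCTC in capitals. They lie at chr4:17579318-17579617 on the plus strand for GH3.2, chr4:13653279-13653578 on the plus strand for GH3.5, chr2:9866563-9866862 on the minus strand for GH3.3 and chr2:6453798-6454097 on the minus strand for GH3.1.
GH3.2: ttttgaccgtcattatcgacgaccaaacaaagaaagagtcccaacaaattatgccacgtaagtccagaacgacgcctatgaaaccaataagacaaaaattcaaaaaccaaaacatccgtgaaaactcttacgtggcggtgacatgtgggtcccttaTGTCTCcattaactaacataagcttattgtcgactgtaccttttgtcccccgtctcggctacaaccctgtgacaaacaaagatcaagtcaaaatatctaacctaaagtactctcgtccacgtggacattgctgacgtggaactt
GH3.5: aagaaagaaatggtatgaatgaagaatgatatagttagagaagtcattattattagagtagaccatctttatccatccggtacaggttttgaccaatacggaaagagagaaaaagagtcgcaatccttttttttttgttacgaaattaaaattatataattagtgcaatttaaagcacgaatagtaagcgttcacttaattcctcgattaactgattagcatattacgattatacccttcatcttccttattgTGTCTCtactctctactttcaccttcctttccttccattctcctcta
GH3.3: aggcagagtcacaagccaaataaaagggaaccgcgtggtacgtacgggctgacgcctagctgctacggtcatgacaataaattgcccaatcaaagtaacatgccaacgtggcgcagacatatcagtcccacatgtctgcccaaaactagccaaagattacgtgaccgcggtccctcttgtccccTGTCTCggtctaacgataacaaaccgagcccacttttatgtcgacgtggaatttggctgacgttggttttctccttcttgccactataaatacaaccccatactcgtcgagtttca
GH3.1: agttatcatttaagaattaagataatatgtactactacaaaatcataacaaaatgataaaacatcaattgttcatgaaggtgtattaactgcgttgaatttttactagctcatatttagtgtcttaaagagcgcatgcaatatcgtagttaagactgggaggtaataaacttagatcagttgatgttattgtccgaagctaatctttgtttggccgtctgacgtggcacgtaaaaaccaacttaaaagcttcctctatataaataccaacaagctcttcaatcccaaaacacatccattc
The motif begins 144 bases before the start of GH3.2, 47 bases before that of GH3.5 and 116 bases before that of GH3.3. Searched as TGTCTC and GAGACA, so on both strands, it was not among the letters of this window for GH3.1, GH3.6, GH3.17, DAO1 or UGT84B1. It was present in 12.965% of the 300-base windows upstream of 27443 genes. The other element searched, TGTCGG with CCGACA, was in none of the 8 member windows and in 4.912% of all windows. A match describes the letters only.

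Levels between genes were compared per length, as FPKM (fragments scaled for gene length and for depth). Over the 21 libraries GH3.17 had the highest mean at 27.6 FPKM, followed by DAO1 at 23.8. GH3.5, GH3.2 and GH3.6 lay close together at 10.6, 9.39 and 9.13 FPKM. GH3.3 averaged 3.78 FPKM and GH3.1 averaged 1.41 FPKM. UGT84B1 averaged 0.0145 FPKM. Over all libraries the read counts ran from 20361 for GH3.17 to 850 for GH3.1 and 6 for UGT84B1, so GH3.1 is the least precisely measured of the tested members. Each gene lies at the same place in the count table and in TAIR10.1, and none overlaps another gene of the table.

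With AtCEP5, GH3.2 and GH3.5 were higher than with mock, GH3.1 was lower when the 3 times were averaged, and GH3.3, GH3.6, GH3.17 and DAO1 gave no call in the fit of all libraries. GH3.6 was called at 6 h only in fits of the 6 libraries of that time (adjusted p = 0.0426, and 0.0121 with the replicate number as a block). Called means a Benjamini-Hochberg adjusted p under 0.05 in edgeR's quasi-likelihood test over 19938 genes. At 6 h 1 of 7 tested members was called, higher, against 11.3% of all genes called in either direction and 5.94% higher. At 12 h edgeR called 0 of 7, against 12.1% of all genes, with 2 members at an unadjusted p under 0.05 and 0 called by DESeq2. At 24 h 2 of 7 were called, both higher, against 7.81% of all genes in either direction and 3.7% higher. For the average of the 3 times 3 of 7 were called, 2 higher and 1 lower, against 30.3% of all genes, 14.8% higher and 15.5% lower, a background too high to set the members apart by their count. Without regard to the test, all 3 AtCEP5 libraries lay above all 3 mock libraries for 2 members at 6 h (15.7% of all genes), 2 at 12 h (15.3%) and 2 at 24 h (10.8%). They lay below for 1 member at each time, against 16.1, 16.5 and 11.2% of all genes. The median log2 fold change of the members was −0.05, −0.06 and 0.01 at 6, 12 and 24 h and 0.03 for the average, and that of all genes was 0.01, −0.02, −0.00 and −0.00.

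**Figure D1:**
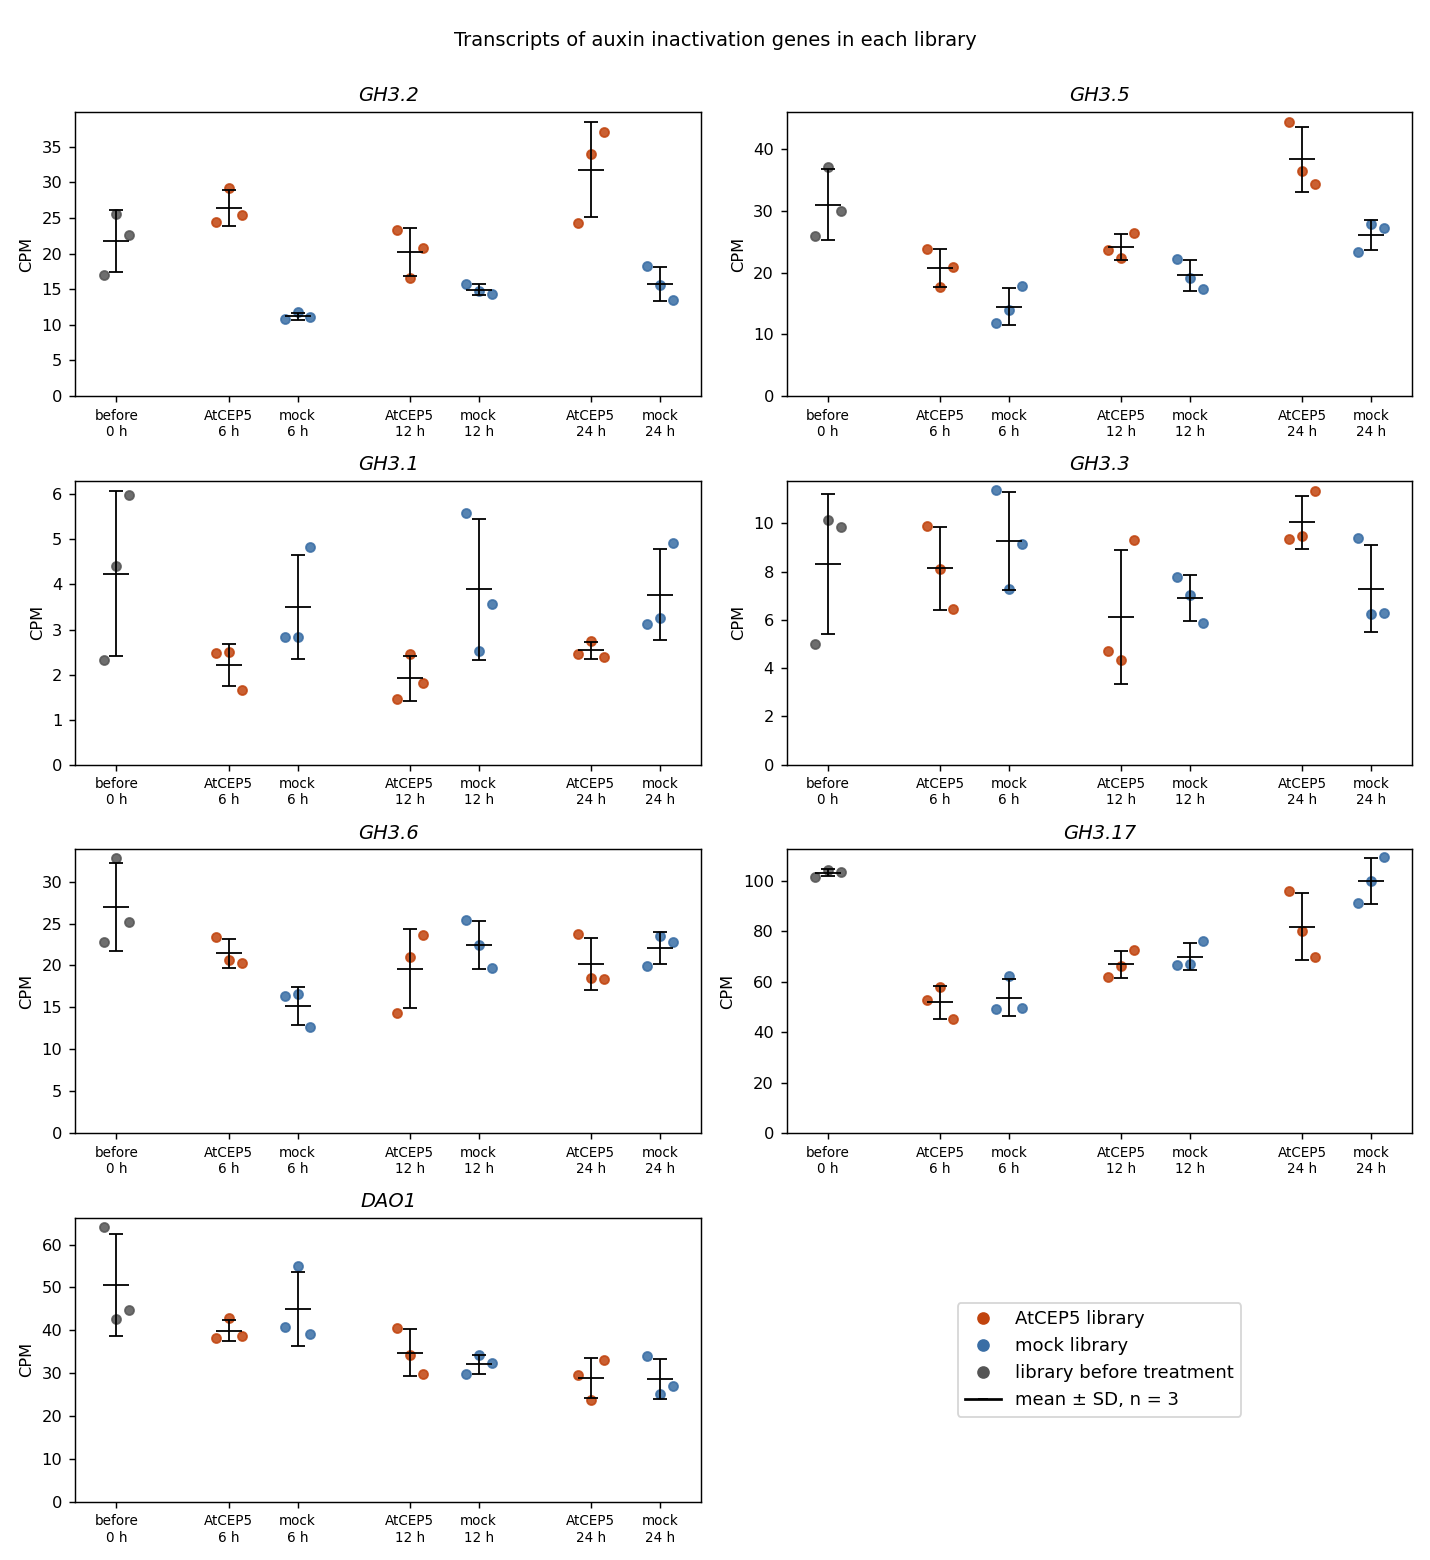
Normalised level (CPM, linear axis from 0) of the 7 tested genes in each library, with each group's mean and SD as black bars (n = 3 libraries). GH3.2 shows all AtCEP5 libraries above all mock libraries at each of the 3 times, and GH3.1 shows all AtCEP5 libraries below.

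GH3.2, also known as YADOKARI 1, lies at chr4:17579618-17582022 on the plus strand and had the largest AtCEP5 effect of the members at 6 h, at 24 h and on average, though not at 12 h. At 6 h it had 24.4, 29.3 and 25.4 CPM in AtCEP5 roots, against 10.8, 11.8 and 11.1 CPM in mock roots. At 12 h the values were 23.3, 16.6 and 20.8 CPM in AtCEP5 roots and 15.8, 14.8 and 14.3 CPM in mock roots. At 24 h they were 24.3, 34.0 and 37.1 CPM in AtCEP5 roots and 18.3, 15.6 and 13.5 CPM in mock roots. The groups did not overlap at any of the 3 times, with AtCEP5 above mock, a pattern found at all 3 times for 4.76% of the genes tested. The log2 fold change was 1.24 ± 0.18 (SE) at 6 h, a 2.36-fold difference with a 95% interval of 1.82 to 3.05 and an adjusted p of 7.18e-05. It was 1.01 ± 0.17 at 24 h, a 2.01-fold difference with an adjusted p of 0.000549. At 12 h it was 0.44 ± 0.18 with an adjusted p of 0.112, which did not pass. The average over the times was 0.90 ± 0.10, with an adjusted p of 5.06e-07. The 6 h, 24 h and average calls held without any 1 library and under each other processing tried. In its exons 23 of 2023 stretches of 50 bases (1.14%) also occur in GH3.4, which had 1 read in all 21 libraries.

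In bulk RNA, a change in the number of cells that express a gene and a change in RNA per cell cannot be told apart. Summed markers of differentiated root cells were lower with AtCEP5 at 6 and 12 h without overlap, and at 24 h the sums just overlapped. At 6 h, 3 of these 5 markers, the root hair genes COBL9, EXP7 and EXP18, were lower with AtCEP5. At 12 and 24 h edgeR called 2 and 1 of the 5, all lower. For comparison, 11.3, 12.1 and 7.81% of all genes were called in either direction at 6, 12 and 24 h, and 30.3% on average. The 5 markers summed to 231 to 268 CPM in AtCEP5 roots at 6 h and 306 to 363 CPM in mock roots. At 12 h the sums were 220 to 240.2 CPM in AtCEP5 roots and 258 to 287 CPM in mock roots. At 24 h they were 194 to 214.9 CPM in AtCEP5 roots and 214.5 to 389 CPM in mock roots. The 4 root cap markers summed to 28.0 to 29.9 CPM in AtCEP5 roots and 31.7 to 37.5 CPM in mock roots at 6 h, and to 20.1 to 28.0 CPM in AtCEP5 roots and 28.3 to 33.8 CPM in mock roots at 12 h, without overlap. At 24 h they overlapped, with 23.1 to 28.5 CPM in AtCEP5 roots and 21.3 to 31.2 CPM in mock roots, and edgeR called 0, 0 and 1 of the 4, lower, at 6, 12 and 24 h. Green shoot markers were the other way round at 12 h, with 218 to 414 CPM in AtCEP5 roots, 142 to 185 CPM in mock roots and 1 of 5 tested markers called higher. Their sums overlapped at 6 h, with 165 to 253 CPM in AtCEP5 roots and 130 to 218 CPM in mock roots, and at 24 h, with 315 to 328 CPM in AtCEP5 roots and 250.3 to 360 CPM in mock roots. Root meristem markers gave 97.2 to 104 CPM in AtCEP5 roots at 6 h and 85.6 to 113 CPM in mock roots. At 12 h they gave 90.5 to 107 CPM in AtCEP5 roots and 95.5 to 128 CPM in mock roots. At 24 h they gave 89.2 to 107 CPM in AtCEP5 roots and 86.2 to 114 CPM in mock roots, so these sums overlapped at each time. Of these 6 markers edgeR called 0, 0 and 1, higher, at 6, 12 and 24 h, and 1 higher and 1 lower on average. The part of cell makeup in the results for GH3.2 and the other members was not tested.

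GH3.5, also named WES1, acts on IAA and on salicylic acid and lies at chr4:13653579-13656285 on the plus strand. At 24 h it had 44.4, 36.5 and 34.4 CPM in AtCEP5 roots, against 23.4, 27.8 and 27.2 CPM in mock roots. Its 6 h values were 23.9, 17.6 and 20.9 CPM in AtCEP5 roots and 11.9, 13.9 and 17.8 CPM in mock roots. Its 12 h values were 23.6, 22.3 and 26.5 CPM in AtCEP5 roots and 22.3, 19.1 and 17.3 CPM in mock roots. All AtCEP5 libraries lay above all mock libraries at 12 and 24 h, while at 6 h the lowest AtCEP5 library fell just below the highest mock one. The log2 fold change was 0.56 ± 0.16 at 24 h (1.47-fold, adjusted p = 0.0389) and 0.46 ± 0.10 for the average (1.37-fold, adjusted p = 0.000915). It was 0.52 ± 0.17 at 6 h (adjusted p = 0.0546, and 0.0422 with DESeq2) and 0.30 ± 0.17 at 12 h (adjusted p = 0.274). The 24 h call did not hold without AtCEP5 24 h replicate 1 (adjusted p = 0.198) or 2 (0.0726) or without mock 24 h replicate 1 (0.148), 2 (0.0721) or 3 (0.0606). The 6 h value passed without AtCEP5 6 h replicate 2 (0.0458), mock 6 h replicate 3 (0.0198) or replicate 1 (0.0417) or 2 (0.0466) of the group before treatment. The average call held without any 1 library.

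GH3.1 lies at chr2:6451319-6453797 on the minus strand and was the member that moved the other way. At 6 h it had 2.47, 2.50 and 1.66 CPM in AtCEP5 roots, against 2.84, 2.84 and 4.84 CPM in mock roots. The 12 h values were 1.47, 2.46 and 1.82 CPM in AtCEP5 roots and 5.59, 2.51 and 3.57 CPM in mock roots. At 24 h it had 2.46, 2.75 and 2.39 CPM in AtCEP5 roots and 3.12, 3.25 and 4.93 CPM in mock roots. Every AtCEP5 library lay below every mock library of its time, at times by a narrow gap, and 4.68% of all genes tested showed the same at all 3 times. No single time passed, with log2 fold changes of −0.67 ± 0.36 at 6 h (adjusted p = 0.263), −1.01 ± 0.36 at 12 h (0.0728) and −0.57 ± 0.35 at 24 h (0.406). The average fell by 0.75 ± 0.21 on the log2 scale (adjusted p = 0.00791), which is 0.594 times the mock level with a 95% interval of 0.441 to 0.8. That call held without any 1 library and under each other processing tried. The 12 h value passed without mock 12 h replicate 2 (0.0443) or without replicate 1 of the group before treatment (0.0491).

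GH3.6, known as DFL1, lies at chr5:22130964-22133688 on the minus strand. At 6 h it had 23.5, 20.7 and 20.2 CPM in AtCEP5 roots, against 16.4, 16.6 and 12.6 CPM in mock roots, with no overlap. The log2 fold change was 0.50 ± 0.18, with an adjusted p of 0.0835 in the unpaired fit of all libraries and 0.0426 in a fit of the 6 libraries of that time. At 12 h it had 14.4, 20.96 and 23.6 CPM in AtCEP5 roots and 25.4, 22.4 and 19.7 CPM in mock roots, and at 24 h 23.7, 18.5 and 18.3 CPM in AtCEP5 roots and 19.9, 23.5 and 22.8 CPM in mock roots. The groups overlapped at both later times, with log2 fold changes of −0.20 ± 0.18 and −0.13 ± 0.18 (adjusted p = 0.543 and 0.781). For the average the 95% interval of the log2 difference was −0.16 to 0.27.

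At 6 h the replicate numbers met the rule for pairing, which does not show that they mark real pairs. Calls depended on both the block and the libraries fitted. With the block in all 21 libraries 1 member was called, as without it, and GH3.5 (0.0727) and GH3.6 (0.0957) did not pass. The 6 libraries of that time alone, with no block, called 2 members, GH3.2 and GH3.6. In those 6 libraries with the block 3 were called, all higher. There the log2 fold change of GH3.2 was 1.23 (adjusted p = 9.04e-06), that of GH3.6 was 0.51 (0.0121) and that of GH3.5 was 0.52 (0.0255). Over all genes, 2247 were called in all libraries without the block and 2107 with it, against 2751 in the 6 libraries without the block and 4802 with it. The low-count filter was applied anew in the 6 libraries, so the number of genes tested there can differ from 19938. With so many genes called, the count of 3 members does not set them apart.

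GH3.3 (chr2:9863855-9866562, minus strand) shares the TGTCTC letters with GH3.2 and GH3.5 but gave no call. At 6 h it had 9.87, 8.12 and 6.43 CPM in AtCEP5 roots and 11.4, 7.29 and 9.16 CPM in mock roots. At 12 h it had 4.71, 4.34 and 9.31 CPM in AtCEP5 roots and 7.77, 7.02 and 5.87 CPM in mock roots, and at 24 h 9.35, 9.46 and 11.3 CPM in AtCEP5 roots and 9.37, 6.23 and 6.29 CPM in mock roots. The groups overlapped at every time. Its log2 fold changes were −0.19 ± 0.28, −0.19 ± 0.29 and 0.46 ± 0.28 at 6, 12 and 24 h (adjusted p = 0.73, 0.743 and 0.394). The average had a 95% interval of −0.31 to 0.37 on the log2 scale, so no change in either direction was shown.

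GH3.17 (chr1:9825169-9828118, plus strand), the member with the highest level, had 52.7, 58.1 and 45.1 CPM at 6 h in AtCEP5 roots and 49.4, 62.2 and 49.5 CPM in mock roots. By 12 h GH3.17 had 62.0, 66.4 and 72.6 CPM in AtCEP5 roots and 66.5, 67.2 and 76.1 CPM in mock roots. At 24 h it had 95.9, 80.1 and 69.8 CPM in AtCEP5 roots and 91.1, 99.8 and 109 CPM in mock roots. The 24 h groups overlapped through a single AtCEP5 library, and the log2 fold change was −0.29 ± 0.13 (adjusted p = 0.217). At 6 and 12 h the values were −0.05 ± 0.13 and −0.06 ± 0.13, and the average had a 95% interval of −0.29 to 0.03.

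DAO1 (chr1:4835724-4837771, minus strand) had 38.3, 42.8 and 38.8 CPM at 6 h in AtCEP5 roots and 40.7, 55.0 and 39.2 CPM in mock roots. By 12 h DAO1 had 40.5, 34.3 and 29.7 CPM in AtCEP5 roots and 29.8, 34.2 and 32.3 CPM in mock roots. At 24 h it had 29.6, 23.8 and 33.0 CPM in AtCEP5 roots and 33.9, 25.2 and 26.9 CPM in mock roots. The groups overlapped at each time, and the 3 log2 fold changes were −0.17 ± 0.17, 0.12 ± 0.17 and 0.01 ± 0.17 (adjusted p = 0.604, 0.727 and 0.988). The average had a 95% interval of −0.22 to 0.19 on the log2 scale.

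UGT84B1 (chr2:9899927-9901439, minus strand) gave 6 reads in 4 of the 21 libraries. It had 0 reads in all 9 AtCEP5 libraries, 3 reads in 2 of the 9 mock libraries and 3 reads in 2 of the 3 libraries before treatment. A count of 0 allows up to 3 counts in a library, which is 0.235 CPM at the mean depth, counting error only. The main fit gave no fold for it, the fits without a filter gave one resting on these 6 reads, and a difference was not detectable at this depth.

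**Figure D2:**
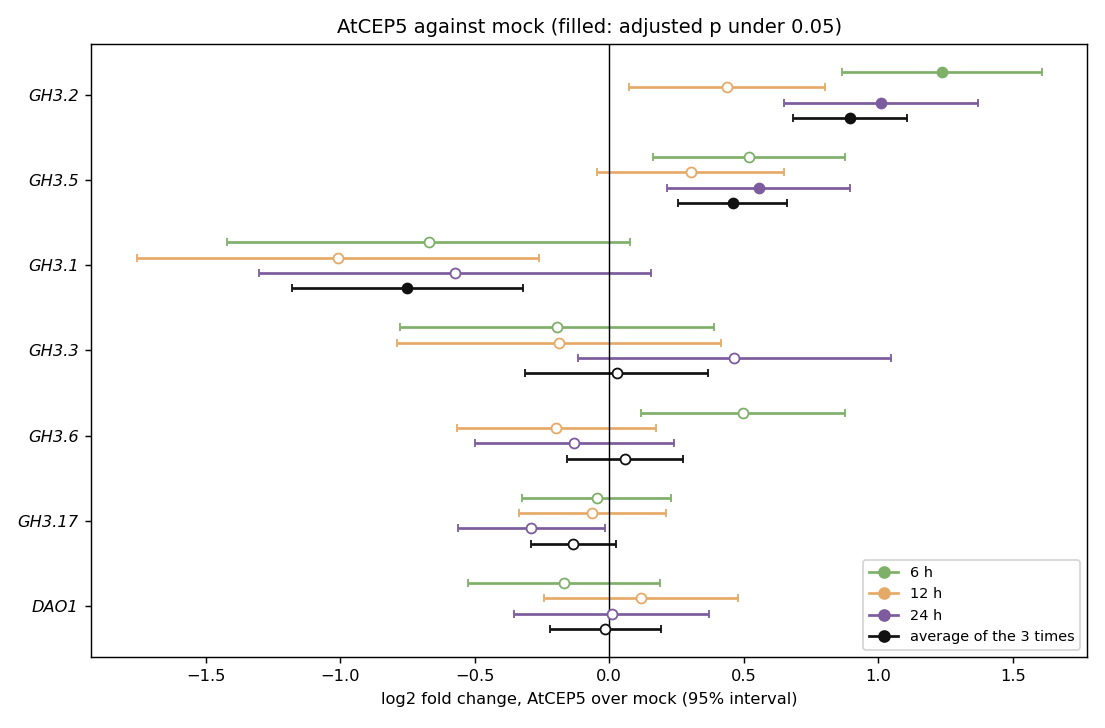
Log2 fold change of AtCEP5 over mock for the 7 tested genes at 6, 12 and 24 h and averaged, with 95% intervals from edgeR's fit, and with filled points where the adjusted p was under 0.05. GH3.2 is filled at 6 h (1.24), 24 h (1.01) and on average (0.90), GH3.5 at 24 h (0.56) and on average (0.46), and GH3.1 on average (−0.75).

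Whether the AtCEP5 effect itself changed with time was tested as a difference of differences. edgeR called 0 of 7 members in each of the 3 comparisons of times, against 0.00502% of all genes for 12 against 6 h, 0.015% for 24 against 12 h and 0.01% for 24 against 6 h. DESeq2 also called 0 members. At an unadjusted p under 0.05 stood 2 members for 12 against 6 h, 1 for 24 against 12 h and 1 for 24 against 6 h. They were GH3.2, with −0.80 ± 0.25 for 12 against 6 h and 0.57 ± 0.24 for 24 against 12 h, and GH3.6, with −0.69 ± 0.26 for 12 against 6 h and −0.63 ± 0.26 for 24 against 6 h. A weaker GH3.2 effect at 12 h than at the times around it is therefore not established.

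The GH3 transcripts also differed in make-up, per length. The 6 GH3 genes summed to 54.3 ± 4.33 FPKM in AtCEP5 roots and 41.7 ± 1.98 FPKM in mock roots at 6 h (SD, n = 3 each). The sums were 55.9 ± 4.02 and 76.9 ± 4.2 FPKM in AtCEP5 roots at 12 and 24 h, and 55.7 ± 2.01 and 70.2 ± 6.37 FPKM in mock roots. The summed levels stood apart at 6 h and overlapped at 12 and 24 h. Before treatment the sum was 79.0 ± 9.75 FPKM.

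GH3.2 made up 22.6 ± 2.28% of this sum in AtCEP5 roots at 6 h, against 11.9 ± 0.0765% in mock roots. At 12 h its share was 16.7 ± 3.31% in AtCEP5 roots and 12.4 ± 0.344% in mock roots, and at 24 h 19.6 ± 5.19% in AtCEP5 roots and 10.5 ± 2.11% in mock roots. The lowest AtCEP5 share exceeded the highest mock share at every time. GH3.17, the most abundant, made up 35.1 ± 2.46%, 43.6 ± 1.53% and 39.5 ± 3.84% in AtCEP5 roots and 45.0 ± 3.89%, 46.2 ± 4.57% and 52.5 ± 2.28% in mock roots at 6, 12 and 24 h. Its shares were separate at 6 and 24 h and overlapped at 12 h. Shares of a sum are tied to each other, so a lower share need not be a lower level. The level of GH3.17 was 19.1 FPKM in AtCEP5 roots and 18.8 FPKM in mock roots at 6 h. At 24 h it was 30.5 FPKM in AtCEP5 roots and 36.9 FPKM in mock roots, and neither time gave a call. An exact two-sided permutation test of 3 against 3 libraries cannot go below p = 0.1, so these shares are given without a test.

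**Figure D3:**
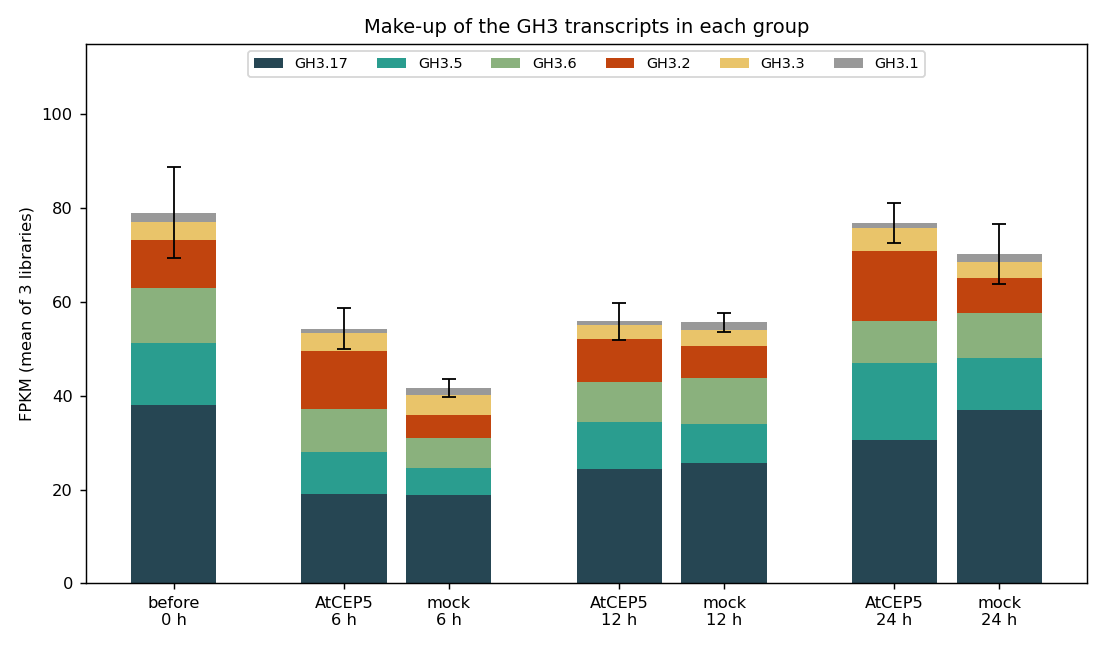
Summed level of 6 GH3 transcripts (mean FPKM of 3 libraries, axis from 0) in each group, stacked by gene, with bars for the SD of the sum over 3 libraries. The GH3.2 layer is thicker in AtCEP5 than in mock roots at each time, with 22.6 against 11.9% of the sum at 6 h.

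Set against the libraries taken before treatment, 4 of the 7 tested members were lower after 6 and after 12 h of mock treatment, though not the same 4. These comparisons share the 3 libraries before treatment with each other and with the AtCEP5 ones that follow. The 4 calls at 6 h stand against 38.7% of all genes called in either direction and 20.5% lower, and the 4 at 12 h against 37.4% and 19.7%. At 24 h 2 were called, both lower, against 35.1% in either direction and 18.5% lower. Green shoot markers summed to 342 to 2000 CPM before treatment. In mock roots they were lower at 6 and 12 h, with 130 to 218 and 142 to 185 CPM, and overlapped at 24 h, with 250.3 to 360 CPM. Of 5 tested, 5, 5 and 2 were called lower at the 3 times. Root cap markers summed to 36.5 to 43.8 CPM before treatment. In mock roots they had 31.7 to 37.5, 28.3 to 33.8 and 21.3 to 31.2 CPM, overlapping at 6 h only. Differentiated root and root meristem sums overlapped at each time, and the part of cell makeup in these results was not tested.

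After mock treatment GH3.5 fell by 1.10 ± 0.17 on the log2 scale at 6 h (adjusted p = 2.67e-05) and by 0.67 ± 0.17 at 12 h (0.00315). GH3.5 had 25.9, 37.2 and 30.1 CPM before treatment, above every mock library at those times. GH3.2 had 16.98, 25.5 and 22.6 CPM before treatment. It fell by 0.96 ± 0.18 at 6 h (0.000212), by 0.54 ± 0.17 at 12 h (0.0183) and by 0.46 ± 0.17 at 24 h (0.0431). The 6 and 12 h mock libraries all lay below those before treatment, and at 24 h 1 mock library overlapped them. Its 12 h call was lost without replicate 2 before treatment (0.0982) or mock 12 h replicate 3 (0.0588), and its 24 h call was lost without any 1 of 9 libraries, 4 of them its own (adjusted p of 0.1 to 0.186) and 5 of other groups (0.0509 to 0.052).

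GH3.17 had 102, 104 and 104 CPM before treatment, a narrow spread. It fell by 0.94 ± 0.13 in mock roots at 6 h (8.47e-06) and by 0.56 ± 0.13 at 12 h (0.00201), and at 24 h it gave no call. The order of its mock levels, lowest at 6 h and highest at 24 h, was without overlap between the times. GH3.6 had 22.8, 32.8 and 25.2 CPM before treatment and fell by 0.83 ± 0.18 at 6 h in mock roots (0.00095). DAO1 had 64.2, 42.7 and 44.8 CPM before treatment. It fell by 0.65 ± 0.17 at 12 h (0.00483) and by 0.82 ± 0.17 at 24 h (0.000887) in mock roots, each time with no overlap. GH3.1, with 2.33, 4.41 and 5.98 CPM before treatment, and GH3.3, with 4.99, 10.1 and 9.84 CPM, varied more between those 3 libraries and gave no call.

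In AtCEP5 roots against before treatment 3 of 7 members were called at 6 h, all lower, against 27.7% of all genes in either direction and 14.6% lower. At 12 h 3 were called, all lower, against 23.7% and 13.2%. At 24 h 2 were called, 1 lower and 1 higher, against 28.0% in either direction, 15.2% lower and 12.8% higher. The green shoot markers summed to 165 to 253, 218 to 414 and 315 to 328 CPM in AtCEP5 roots at 6, 12 and 24 h, against 342 to 2000 CPM before treatment. Root cap markers summed to 28.0 to 29.9, 20.1 to 28.0 and 23.1 to 28.5 CPM, against 36.5 to 43.8 CPM. Differentiated root markers summed to 231 to 268, 220 to 240.2 and 194 to 214.9 CPM, against 285 to 368 CPM. These last 2 lists were lower at each time without overlap, root meristem sums overlapped, and the part of cell makeup was not tested.

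GH3.17 fell by 0.99 ± 0.13 at 6 h (9.19e-06) and by 0.62 ± 0.13 at 12 h (0.00147) in AtCEP5 roots, beside 0.94 and 0.56 in mock roots, which were set against the same 3 libraries. DAO1 fell by 0.54 ± 0.17 at 12 h (0.027) and by 0.81 ± 0.17 at 24 h (0.00133). Its 12 h call was lost without replicate 1 before treatment (0.222) or AtCEP5 12 h replicate 2 (0.101) or 3 (0.143). GH3.5 fell by 0.58 ± 0.17 at 6 h (0.0119), a call lost without replicate 2 before treatment (0.0671) or AtCEP5 6 h replicate 2 (0.0686).

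GH3.2 was the only member called higher than before treatment in any of the 6 comparisons, at 24 h with AtCEP5, by 0.55 ± 0.17 (0.0201). That call was lost without replicate 1 before treatment (0.122) or AtCEP5 24 h replicate 2 (0.0826) or 3 (0.108), and 1 AtCEP5 library lay inside the range before treatment. GH3.1 fell by 1.14 ± 0.36 at 12 h in AtCEP5 roots (0.0247), lost without replicate 2 (0.0547) or 3 (0.151) before treatment or AtCEP5 12 h replicate 1 (0.0894) or 3 (0.0751). At 6 h it fell by 0.94 ± 0.35 with an adjusted p that rounds to 0.05, and this call was lost without any 1 of 15 libraries, 5 of them its own (adjusted p of 0.0748 to 0.248) and 10 of other groups (0.05 to 0.0573). The AtCEP5 libraries of GH3.1 overlapped those before treatment at both times.

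Ordered by group mean, GH3.2 stood highest in AtCEP5 roots at 24 h (31.8 CPM) and 6 h (26.4 CPM), then before treatment (21.7 CPM), and lowest in mock roots at 6 h (11.2 CPM). Neighbours in this order overlapped except the 2 lowest, mock at 12 h and at 6 h. For GH3.1 the 3 AtCEP5 groups were the 3 lowest (1.92 to 2.53 CPM), and the gap between the lowest mock group and the highest AtCEP5 group was the only 1 without overlap. For GH3.5 the order ran from 38.4 CPM in AtCEP5 roots at 24 h to 14.5 CPM in mock roots at 6 h, and every neighbour overlapped. DAO1 ran from 50.6 CPM before treatment to 28.7 CPM in mock roots at 24 h, also with overlap between all neighbours.

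Across the 21 libraries the log2 CPM of GH3.2 and GH3.5 had a Pearson correlation of 0.66, that of GH3.17 and GH3.5 was 0.65, and that of GH3.2 and GH3.1 was −0.35. These describe libraries that share treatments and times. Among the tested genes with a mean of at least 5 CPM, the patterns most like GH3.2 were those of AT2G45220 (r = 0.87), ACX2 (0.84), an acyl-CoA oxidase gene, and BOA (0.83), a gene of the circadian clock. Most like GH3.5 were AT1G09910 (0.91), AT1G64620 (0.87) and CDF2 (0.87), a DOF transcription factor gene. Most like GH3.1 were AT5G12940 (0.88), KCS5 (0.87), a gene of very-long-chain fatty acid synthesis, and AT5G49665 (0.86).

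The rest of the GH3 family, 13 genes of which 8 were tested, held members that moved both ways. For AtCEP5 against mock 2 were higher and 1 lower at 6 h, 1 and 1 at 12 h, 1 and 2 at 24 h, and 2 and 2 on average, with a median log2 fold change of −0.11 on average. All genes were called in either direction at 11.3, 12.1 and 7.81% at the 3 times and at 30.3% on average, with 14.8% higher and 15.5% lower. GH3.15, which acts on indole-3-butyric acid, rose by 0.73 ± 0.13 on average (adjusted p = 0.000113). It had 14.5, 13.8 and 13.7 CPM at 6 h in AtCEP5 roots and 7.27, 8.0006 and 8.73 CPM in mock roots. GH3.8 fell by 0.88 ± 0.13 (1.86e-05) and GH3.7 by 0.9999 ± 0.22 (0.00128). GH3.9 rose by 2.76 ± 0.51 (0.000233), on few reads. It had 57, 20 and 37 reads over the 3 libraries of AtCEP5 roots at 6, 12 and 24 h, 6, 4 and 5 reads in mock roots and 4 reads before treatment. GH3.9 overlaps AT2G09955 on the opposite strand, and the strand setting was not given in the sources used here, so its count is uncertain.

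Other routes of IAA inactivation, 7 genes of which 5 were tested, moved down where called. None was higher, 2 were lower at 6 h, 2 at 12 h and 3 on average, and at 24 h edgeR called 0, where all genes gave 11.3, 12.1, 30.3 and 7.81% in either direction and 15.5% lower on average. The median was −0.67 on average, and all 5 fold changes were negative there. DAO2, which lies close to DAO1 on chromosome 1, fell by 0.67 ± 0.16 on average (0.00255). At 6 h DAO2 had 82.9, 73.4 and 80.2 CPM in AtCEP5 roots against 153, 261 and 148 CPM in mock roots, the highest of these being mock 6 h replicate 2, the library richest in ribosomal RNA. IAMT1, which methylates IAA, fell by 0.82 ± 0.14 (6.73e-05). UGT75D1, a glucosyltransferase gene, fell by 0.48 ± 0.09 (0.000303) and overlaps AT4G15545 on the opposite strand.

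Genes that release IAA from conjugates or make it from indole-3-butyric acid, 13 of which 11 were tested, gave few calls. At 6 h 1 was higher, at 12 and 24 h edgeR called 0, and on average 3 were higher and 0 lower, with a median of 0.13. These counts stand against 11.3, 12.1, 7.81 and 30.3% of all genes in either direction, and 14.8% higher on average, so the number of calls does not set these genes apart. The 3 were ECH2 (0.35 ± 0.07, adjusted p = 0.000637), IBR3 (0.25 ± 0.07, 0.0082) and IBR10 (0.32 ± 0.11, 0.031), all of the peroxisomal conversion of indole-3-butyric acid. IBR1, a further gene of that conversion in the list, was not among those called. None of the amidohydrolase genes tested, which free IAA from amino acids, passed on average. ECH2 and IBR3 overlap genes on the opposite strand. The average call of IBR10 was lost without AtCEP5 6 h replicate 3 (0.0508), AtCEP5 12 h replicate 2 (0.0541) or 3 (0.0602), AtCEP5 24 h replicate 1 (0.0646), mock 6 h replicate 3 (0.0669), mock 12 h replicate 1 (0.0501) or mock 24 h replicate 1 (0.0624). It was also lost with limma without a filter (0.0597) and without both libraries rich in ribosomal RNA (0.074).

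Auxin synthesis genes of the TAA and YUCCA families, 13 of which 9 were tested, had calls only in the lower direction. At 6, 12 and 24 h 1, 3 and 1 were lower, and on average 6 were lower and 0 higher, with a median of −0.56. Of all genes 11.3, 12.1 and 7.81% were called in either direction at those times and 30.3% on average, 15.5% lower. YUC6 fell by 0.40 ± 0.06 (3e-05), YUC5 by 0.79 ± 0.14 (0.000104), YUC9 by 0.89 ± 0.17 (0.000288) and YUC3 by 0.59 ± 0.14 (0.00327).

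Early auxin response genes outside the GH3 family, 18 of which 17 were tested, gave 1 higher and 2 lower at 6 h, 1 and 3 at 12 h, 0 and 3 at 24 h, and 1 and 5 on average, with a median of −0.22. The shares of all genes were again 11.3, 12.1, 7.81 and 30.3% in either direction, with 14.8% higher and 15.5% lower on average. IAA14, the Aux/IAA repressor of lateral root formation, fell by 1.26 ± 0.10 on average (4.04e-09), IAA19 by 0.73 ± 0.11 (1.79e-05) and IAA17 by 0.47 ± 0.08 (9.65e-05). IAA2 rose by 0.47 ± 0.08 (7.4e-05). GH3.2 and GH3.5 moved opposite to most of the 6 genes of this list called on average, and GH3.1 moved with them. The other 11 tested genes of the list were not called on average. Of the 17 tested, 13 had negative and 4 positive fold changes at 6 h, and 12 and 5 at 12 h. At 24 h 9 were negative and 8 positive, and on average 11 and 6. The median of all genes was −0.00 on average, and the lists were not tested as sets.

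**Figure D4:**
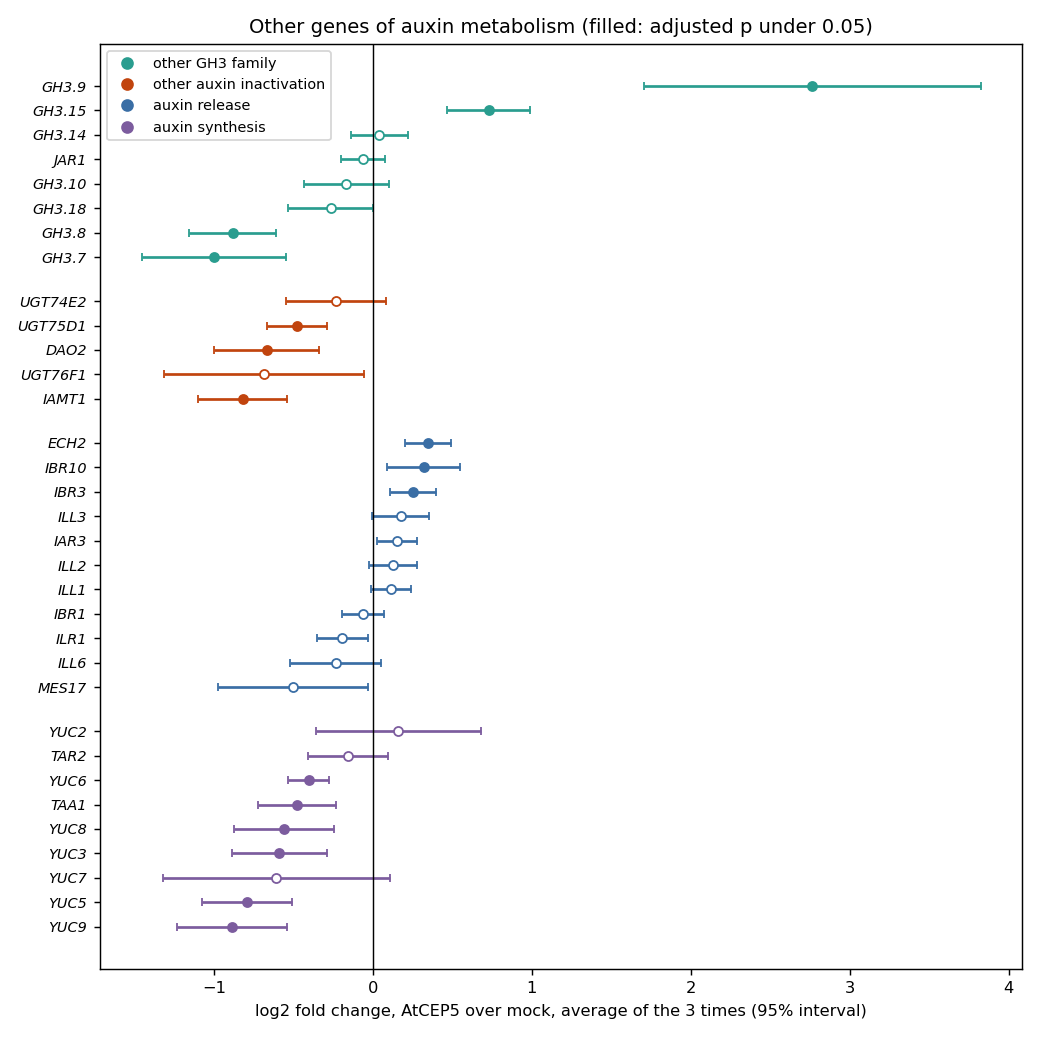
Log2 fold change of AtCEP5 over mock, averaged over the 3 times, with 95% intervals, for the tested genes of 4 lists of auxin metabolism, filled where the adjusted p was under 0.05. In the synthesis list 6 of 9 are filled and all 6 lie below 0, and in the release list 3 of 11 are filled and lie above 0.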

How the data were processed

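RNA-seq counts and FPKM values per gene were deposited by the authors for 21 libraries. Per the labels, root RNA was extracted with TRIzol, treated with DNase and made into poly-A libraries with a TruSeq kit. STAR 2.7.8a, StringTie 2.1.3 and HTSeq are named per the submitters' processing notes. Genome build, tool roles and strand setting were not given in the sources used here. Among 32833 genes, 32548 had a TAIR10.1 locus and 32532 of these the same start and end. All 461492 deposited FPKM values above 0 were 10 times the FPKM recomputed from the counts and were divided by 10. Upstream sequences and gene symbols came from RefSeq's TAIR10.1.

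The deposited counts were fitted with edgeR 4.0.16 (R 4.3.3): quasi-likelihood test, TMM scaling, edgeR's low-count filter (19938 genes), 1 fit of 21 libraries in 7 groups (14 residual degrees of freedom), Benjamini-Hochberg adjustment over all genes. This fit was tried on simulated counts for AtCEP5 against mock at 6 h only, and the other comparisons and the alternatives were not. Fold changes are log2, first group minus second, and rose, fell, higher and lower refer to the first group.

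The members and lists were chosen with earlier results of these data known. Named were all members, up to 4 genes per list with the smallest adjusted p among those called for AtCEP5 against mock, and the 3 genes of most similar pattern for each called member.

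Replicate numbers carry no stated meaning. Deviations from group means of same-numbered AtCEP5 and mock libraries correlated at 0.182, 0.117 and 0.241 at 6 h, each above the minimum of 0.1 set as the rule for pairing. Some unlike-numbered libraries passed that minimum too, so meeting the rule does not show a pairing.

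Alternatives were DESeq2 size factors, no filter, at least 10 counts in 3 libraries, DESeq2 1.42.0, limma 3.58.1 on log2(FPKM + 1) or log2(FPKM + 0.1), a replicate block, the 6 libraries of a time alone, leaving out each library, and, chosen after seeing the data, leaving out both libraries rich in ribosomal RNA.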

Additional observations from a re-analysis of the deposited data

How the results depend on the processing

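GH3.2 at 6 h, at 24 h and on average, and GH3.5 and GH3.1 on average, kept direction and call under every alternative run. The count of members called at 6 h (1) was 2 with DESeq2, with each limma fit and with the 6 libraries alone, 3 with the replicate block in those 6, and 1 to 2 without 1 library. At 12 h (0) it was 0 to 1 without 1 library. At 24 h (2) it was 1 with the replicate block, with limma without a filter, with the 6 libraries alone and with the block in those 6, and 1 to 2 without 1 library. GH3.5 was the call lost there, with an adjusted p of 0.0567 with the block in all libraries. Mock against before treatment at 24 h (2) gave 1 without the filter, with the block, with each limma fit and without the 2 libraries rich in ribosomal RNA, and 1 to 2 without 1 library. AtCEP5 against before treatment gave 1 to 3 at 6 h and 1 to 4 at 24 h without 1 library. Without replicate 3 before treatment, the library richest in green shoot markers, GH3.2 at 24 h in mock roots (0.1) and GH3.1 at 6 and 12 h in AtCEP5 roots (0.248 and 0.151) lost their calls.

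All genes called numbered 4802 at 6 h with the replicate block in 6 libraries (2247 in the main analysis), and 897 and 600.0 at 24 h with the 6 libraries alone and with the block in them (1558). Without 1 library they numbered 1234 to 2453 at 6 h, 1443 to 2747 at 12 h and 980.0 to 1771 at 24 h. Deviations of same-numbered libraries correlated at 0.0301, −0.0495 and 0.0296 at 12 h and −0.194, 0.0919 and −0.14 at 24 h, so they met the rule at 6 h only. Unlike-numbered libraries at 24 h also passed the minimum, at 0.354 (AtCEP5 replicate 3 with mock 1), 0.241 (1 with 2) and 0.176 (2 with 3). The rule therefore cannot show that replicate numbers mark pairs, and the blocked fits are given as alternatives only.

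The sign turned only for uncalled values, and the cause was not tested. GH3.17 at 6 h was 0.0182 with limma at pseudocount 1, with or without a filter, 0.0191 at pseudocount 0.1 and 0.0699 without both libraries rich in ribosomal RNA. DAO1 at 24 h was −0.00508 without the filter. The DAO1 average was 0.00814 with limma at pseudocount 1, with or without a filter, 0.00867 at pseudocount 0.1 and 0.0839 without both libraries. The GH3.3 average was −0.151 without both libraries. Without 1 library, GH3.17 ranged from −0.131 to 0.0713 at 6 h and from −0.0961 to 0.0254 at 12 h, DAO1 from −0.258 to 0.000181 at 6 h, from −0.112 to 0.146 at 24 h and from −0.0576 to 0.0427 on average, and GH3.3 from −0.577 to 0.0278 at 12 h and from −0.103 to 0.0999 on average. Depth limited GH3.1 (19 to 76 reads a library) and UGT84B1 (0 to 2).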
